A study of Homo sapiens with 4 samples.

Results

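The bone morphogenetic protein (BMP) pathway was followed through 10 genes in breast cancer cells depleted of QPRT. They comprise the ligands BMP7, BMP4 and BMP2, the receptor BMPR1A, the target genes ID1, ID2 and ID3, the inhibitory SMADs SMAD6 and SMAD7, and the common mediator SMAD4. The genes were chosen by name, each matched 1 row of the 50653 in the deposited table, and all 10 were among the 14321 genes with a mean of at least 1 FPKM. FPKM, fragments per kilobase of transcript scaled to the library total, is a level per length and can therefore be compared between genes. RNA was sequenced from the lines BT-20 and MDA-MB-468, both established human triple-negative breast cancer lines, after lentiviral transduction with control shRNA or QPRT shRNA and puromycin selection. QPRT, quinolinate phosphoribosyltransferase, makes a precursor of NAD from quinolinate. Each of the 4 combinations of cell line and shRNA had 1 library, so a difference within a cell line had no replicate, and the only replicates of the knockdown were the 2 cell lines. The culture media differed (Eagle's Minimum Essential Medium for BT-20, Leibovitz's L-15 for MDA-MB-468), so that cell line and medium cannot be told apart. A single QPRT hairpin was used in both lines, so that its other effects and those of the knockdown cannot be told apart either. Where a pair of values is given for a cell line, control shRNA comes first.

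BMP ligands are secreted dimers that bring together type I receptors, such as BMPR1A, and type II receptors. The type I receptor phosphorylates SMAD1, SMAD5 and SMAD9, which join SMAD4 and enter the nucleus to act on target genes. The ID genes are classical targets. Their products are helix-loop-helix proteins without a DNA-binding region that hold E proteins such as TCF3, TCF4 and TCF12 away from DNA. SMAD6 and SMAD7 are also induced by the pathway and restrain it at the receptor. MDA-MB-468 is known as a line that lacks SMAD4.

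The library totals behind the FPKM values, recovered from those values and not reported, lay between 10322007 and 10945945 fragments. The targeted gene, QPRT, was at 249 and 40.5 FPKM in BT-20 cells and 117 and 18.3 FPKM in MDA-MB-468 cells. Of 8 markers of breast epithelium, EPCAM, CDH1, KRT8, KRT18, KRT5 and EGFR were above 76.0 FPKM in every library. The basal keratin KRT17 had 2.76 and 2.51 FPKM in BT-20 cells against 237 and 373 in MDA-MB-468. KRT14, another, had 0.330 and 0.161 FPKM in BT-20 cells against 5.76 and 40.6 in MDA-MB-468, and was thus highest in the library that was also highest for BMP4 and SMAD6, in which its part was not tested. Of the receptors that are low in triple-negative tumours, PGR was listed at 0 in all libraries and ESR1 had at most 5.76 FPKM, while ERBB2 had 129 and 122 FPKM in BT-20 cells against 58.1 and 50.7 in MDA-MB-468. Of 19 markers of intestinal or gastric epithelium and plasma cells, 18 were lower with QPRT shRNA in both lines. Their summed level was 97.4 and 37.7 FPKM for BT-20 cells and 225 and 40.4 FPKM for MDA-MB-468 cells. The 6 fibroblast markers summed to 33.3 and 21.7 FPKM in BT-20 and to 20.5 and 15.5 in MDA-MB-468, the 5 leukocyte markers to at most 1.05 FPKM in any library, and the 4 endothelial markers, mostly CDH5, to at least 101 FPKM in BT-20 and at most 4.82 in MDA-MB-468. Over 14232 genes, not independent of each other, the difference between shRNAs had a Spearman rho with the GC content of transcripts of -0.283 in BT-20 cells against 0.288 in MDA-MB-468. The part of these shifts in the results below was not tested. Whether the RNA of these other cell types came from cells in the cultures was not tested. In such bulk RNA, fewer cells of a type and less RNA per cell cannot be told apart either.

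Among the ligands, BMP7 showed the largest difference between shRNAs of the 10 genes in BT-20. BMP7 (ENSG00000101144) occupies bases 57168748 to 57266629 of chromosome 20 (GRCh38, minus strand). BT-20 cells had 42.8 FPKM under control shRNA against 11.7 under QPRT shRNA, and MDA-MB-468 cells had 22.5 against 18.1. The 2 libraries with QPRT shRNA were thus the lowest, and the control library of BT-20 the highest. Differences are of log2(FPKM + 1), QPRT shRNA minus control shRNA, unless fragments are named, and for BMP7 they were -1.78 (BT-20) and -0.29 (MDA-MB-468). Exact Clopper-Pearson 95% intervals of the log2 ratio of fragments, a measure of counting error alone, were -2.13 to -1.61 for BT-20 (565 and 159 fragments) and -0.56 to -0.058 for MDA-MB-468 (306 and 233 fragments). BMP7 belongs to the genes that the study selected for display from these same libraries, so its direction is not independent evidence.

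BMP4 differed in the opposite direction between the lines. This ligand (ENSG00000125378, chromosome 14, 53949736 to 53958761, minus strand) had 3.79 FPKM (control shRNA) and 2.33 FPKM (QPRT shRNA) in BT-20 cells, and 6.79 and 17.4 FPKM in MDA-MB-468. Its MDA-MB-468 library with QPRT shRNA stood above the other 3. The log2 difference was -0.53 in BT-20, on 46 and 29 fragments, with an interval for fragments from -1.43 to -0.0028. In MDA-MB-468 it was 1.24, on 85 and 205 fragments, with an interval from 0.98 to 1.74. BMP2, a close relative of BMP4, was nearly restricted to MDA-MB-468. BMP2 (ENSG00000125845, chromosome 20, 6767664 to 6780280, plus strand) had 0.105 and 0.178 FPKM in BT-20 cells (4 and 7 fragments) against 6.39 and 7.86 FPKM in MDA-MB-468 (252 and 292 fragments). With the fragments of both shRNAs joined, BMP2 was 50.1-fold lower in BT-20 than in MDA-MB-468 (interval 27.8 to 101). Its log2 difference between shRNAs in MDA-MB-468 was 0.26, with an interval for fragments from 0.049 to 0.55. In BT-20 the interval, from -1.21 to 2.99, was too wide to show a difference at this depth. The BT-20 library with QPRT shRNA also held traces of other genes high in MDA-MB-468. For 8 genes at 50 FPKM or more in MDA-MB-468 and under 0.05% of that level in the BT-20 control library, the median share was 0.551%, while that of BMP2 was 1.47% (control shRNA) and 2.50% (QPRT shRNA).

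**Figure D1:**
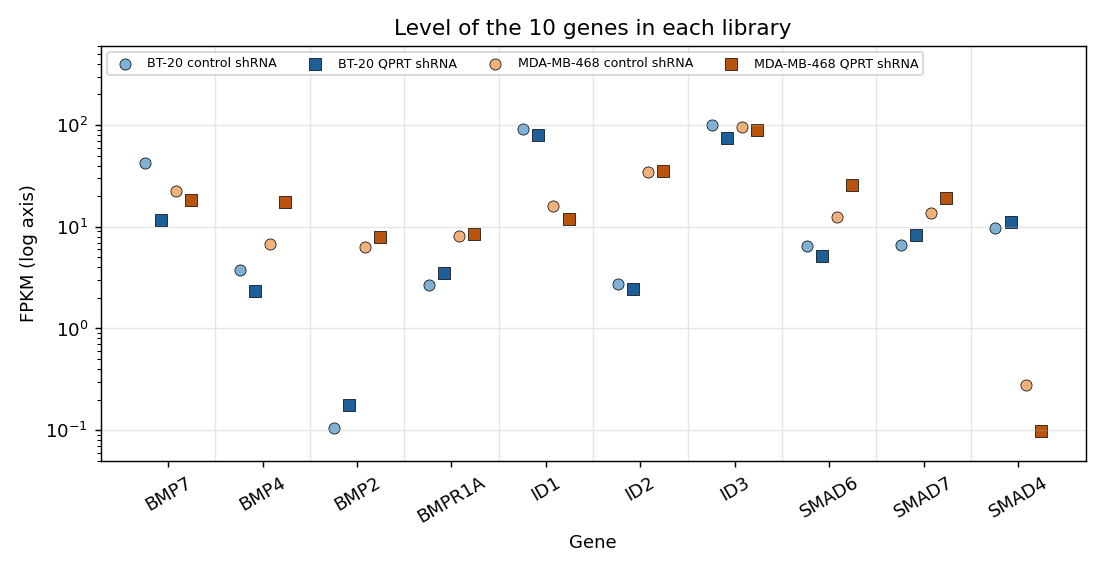
FPKM (vertical log axis) of the 10 genes (horizontal axis), with 1 point for each library; circles are control shRNA and squares QPRT shRNA, blue for BT-20 and orange for MDA-MB-468. BMP2 and ID2 sit lower in BT-20, ID1 and SMAD4 lower in MDA-MB-468, and the BMP7 square of BT-20, at 11.7, is far below its circle, at 42.8.

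At the receptor, BMPR1A was higher in MDA-MB-468. BMPR1A (ENSG00000107779, chromosome 10, 86756601 to 86932838, plus strand) had 2.69 FPKM (control shRNA) and 3.50 FPKM (QPRT shRNA) in BT-20 cells, and 8.11 and 8.51 in MDA-MB-468. The levels of the lines did not overlap. Between shRNAs the log2 difference was 0.29 in BT-20 cells against 0.063 in MDA-MB-468, and only the BT-20 interval for fragments, from 0.083 to 0.68, lay above 0. Once the trend of the differences on GC content and transcript length was removed, the BT-20 difference was 0.068. The other type I receptor BMPR1B had no fragment in either BT-20 library, which allows up to 3 fragments in each, and 0.828 and 1.36 FPKM in MDA-MB-468. ACVR1, also a type I receptor, ranged from 16.9 to 23.6 FPKM, and the type II receptor BMPR2 from 9.56 to 13.8 FPKM over the 4 libraries. The receptor-activated SMAD1 had 12.1 and 16.4 FPKM in BT-20 cells against 27.4 and 24.8 in MDA-MB-468. SMAD5 had 16.3 and 20.3 FPKM in BT-20 cells against 40.8 and 35.3 in MDA-MB-468. Each was thus higher with QPRT shRNA in BT-20 and lower in MDA-MB-468. SMAD9 did not exceed 0.205 FPKM in any library.

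SMAD4 was close to absent from MDA-MB-468. SMAD4 (ENSG00000141646, chromosome 18, 51028394 to 51085045, plus strand) had 9.67 FPKM (control shRNA) and 11.2 FPKM (QPRT shRNA) in BT-20 cells, or 202 and 241 fragments. In MDA-MB-468 it had 0.279 and 0.0986 FPKM, or 6 and 2 fragments. Joined over shRNAs, its fragments were 54.7-fold fewer, relative to library size, in MDA-MB-468, with an exact 95% interval from 27.5-fold to 127-fold. The difference between shRNAs was 0.20 in BT-20, where the interval for fragments, from -0.060 to 0.49, included 0, and could not be resolved in MDA-MB-468 on so few fragments. Of the exonic bases of SMAD4, 7.37% are shared with a neighbouring annotated transcript on the same strand, AC091551.1. By comparison, the BMP target MSX2 had no fragment in either MDA-MB-468 library against 1446 and 930 in BT-20, and the exact 95% interval of how many fold lower it was began at 636.

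Of the neighbours of SMAD4, 1 was also low in MDA-MB-468. Within 1 Mb of its ends, 11 other protein-coding genes are annotated, and 8 had a mean of at least 1 FPKM in BT-20. ELAC1, a tRNA-processing enzyme whose gene ends 40.3 kb before SMAD4, had 2.23 and 1.56 FPKM in BT-20 cells against 0.270 and 0.215 in MDA-MB-468. Its MDA-MB-468 level was 12.8% of that in BT-20, on 7 fragments in MDA-MB-468 and 55 in BT-20, or 7.76-fold lower (interval 3.52 to 20.2). The other 7 genes stood at 115% to 309% of their BT-20 level. They include the flanking genes ME2, at 23.9 and 16.05 FPKM in MDA-MB-468, and MEX3C, at 22.0 and 21.4 FPKM. By a different measure, the limma call between the lines, 24.4% of all genes tested were lower in MDA-MB-468. Whether the low levels of ELAC1 and SMAD4 are linked was not tested.

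**Figure D2:**
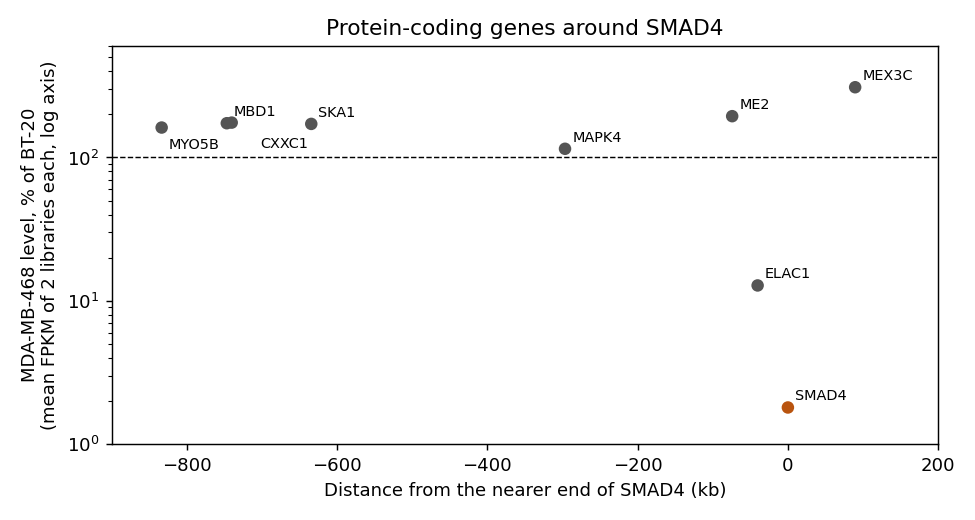
Mean FPKM in the 2 MDA-MB-468 libraries as a percentage of that in the 2 BT-20 libraries (vertical log axis) against the distance from the nearer end of SMAD4 in kb (horizontal axis), for SMAD4 (orange) and the protein-coding genes within 1 Mb with a mean of at least 1 FPKM in BT-20. SMAD4 at 1.80% and ELAC1 at 12.8% lie far below the dashed line of equal levels, with ME2 and MEX3C above it on either side.

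ID1 and ID2 differed more between the cell lines than between the shRNAs, and ID3 did not. ID1 (ENSG00000125968, chromosome 20, 31605283 to 31606515, plus strand) had 91.1 FPKM (control shRNA) and 80.4 FPKM (QPRT shRNA) in BT-20 cells, and 15.99 and 11.9 FPKM in MDA-MB-468. Both MDA-MB-468 libraries were far below both BT-20 libraries. ID2 (ENSG00000115738, chromosome 2, 8678845 to 8684453, plus strand) showed the reverse order, with 2.76 and 2.44 FPKM in BT-20 cells against 34.7 and 34.96 FPKM in MDA-MB-468. ID3 (ENSG00000117318, chromosome 1, 23557918 to 23559794, minus strand) was high in every library, with 101 and 74.3 FPKM in BT-20 cells against 96.8 and 88.6 FPKM in MDA-MB-468, and the lines overlapped. ID4, listed among the BMP targets and not among the 10 genes, had 2.57 and 3.91 FPKM in BT-20 against 104 and 110.1 in MDA-MB-468. Summed over the 4 genes the ID level was 197 and 161 FPKM in BT-20 cells against 251 and 246 FPKM in MDA-MB-468. Under control shRNA, ID1 gave 46.1% of this sum in BT-20 cells against 6.37% in MDA-MB-468, and ID4 gave 1.30% and 41.3%. The line without SMAD4 thus had the lower ID1 and the higher ID2, ID4 and summed ID level.

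**Figure D3:**
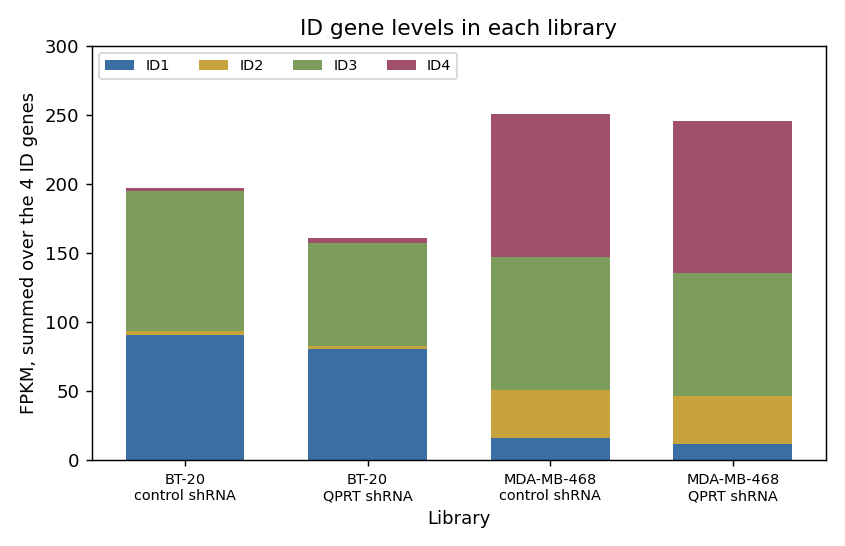
FPKM of ID1, ID2, ID3 and ID4 stacked for each of the 4 libraries, with the sum on the vertical axis. BT-20 bars, at 197 and 161 FPKM, are almost wholly ID1 and ID3, and MDA-MB-468 bars, at 251 and 246 FPKM, are mostly ID3 and ID4.

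Whether the ID genes followed BMP7 was asked by setting their differences beside it. In BT-20, where BMP7 was 3.65-fold lower with QPRT shRNA, ID3 was 1.36-fold lower, ID1 1.13-fold lower and ID2 1.13-fold lower in FPKM. The intervals of the log2 ratio of fragments lay below 0 for ID1 (-0.31 to -0.054) and ID3 (-0.58 to -0.30) and included 0 for ID2 (-0.94 to 0.58), which had only 33 and 30 fragments. In MDA-MB-468, where BMP7 was 1.24-fold lower, ID1 was 1.34-fold lower, with an interval from -0.75 to -0.10. There ID3 was 1.09-fold lower, with an interval from -0.26 to 0.0063, and ID2 was 1.01-fold higher, with one from -0.19 to 0.21. The point value of ID1 was therefore larger in MDA-MB-468, where BMP7 differed less and SMAD4 was nearly absent, but its intervals in the lines overlapped and the contrast between the lines was not tested. Both ID1 and ID3 have GC-rich transcripts, at 58.1% and 57.1% against a median of 49.5% over the genes tested. With the trend on GC content and length removed, the BT-20 difference of ID1 moved from -0.18 to -0.042 and that of ID3 from -0.44 to -0.27, while that of BMP7 was -1.66. In MDA-MB-468 the same step moved ID1 from -0.40 to -0.50 and ID3 from -0.13 to -0.23, so that ID3 then stood at nearly the same difference in both lines.

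The inhibitory SMADs were higher in MDA-MB-468, and of the pair SMAD6 differed more between shRNAs there. SMAD6 (ENSG00000137834, chromosome 15, 66702228 to 66782848, plus strand) had 6.43 FPKM (control shRNA) and 5.12 FPKM (QPRT shRNA) in BT-20 cells, and 12.4 and 25.6 FPKM in MDA-MB-468. The MDA-MB-468 library with QPRT shRNA stood apart from the other 3. Its log2 difference was -0.28 in BT-20, where the interval for fragments, from -0.67 to 0.014, included 0. In MDA-MB-468 it was 0.99, with an interval from 0.85 to 1.25 on 315 and 615 fragments, just below 2-fold on the log2(FPKM + 1) scale and 2.07-fold in FPKM. SMAD7 (ENSG00000101665, chromosome 18, 48919853 to 48952052, minus strand) had 6.60 and 8.37 FPKM in BT-20 cells against 13.6 and 19.3 FPKM in MDA-MB-468, and was thus higher with QPRT shRNA in both lines. Its log2 difference was 0.30 in BT-20, with an interval for fragments from -0.076 to 0.77, and 0.48 in MDA-MB-468, with one from 0.22 to 0.79. In MDA-MB-468, BMP4, SMAD6 and SMAD7 were therefore higher with QPRT shRNA while ID1 was lower and ID2 differed by less than counting error.

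The promoters of SMAD6, ID1 and ID3 are shown. These target genes differed beyond counting error between shRNAs in at least 1 line, yet not in the same direction. SMAD7 also differed beyond counting error, in MDA-MB-468, and its promoters are described by their motifs only. RefSeq (GRCh38.p14) gives 250 bases before and 50 after the transcription start, at chr15:66701986-66702285 on the plus strand for SMAD6, chr20:31605039-31605338 on the plus strand for ID1 and chr1:23559452-23559751 on the minus strand for ID3. Capitals mark the palindrome GTCTAGAC that SMAD proteins bind, the shorter SMAD box CAGAC or its reverse complement GTCTG, and the GC-rich SMAD1 and SMAD5 motifs GGCGCC and GGAGCC, the latter also as GGCTCC. None of these motifs contains another.
SMAD6: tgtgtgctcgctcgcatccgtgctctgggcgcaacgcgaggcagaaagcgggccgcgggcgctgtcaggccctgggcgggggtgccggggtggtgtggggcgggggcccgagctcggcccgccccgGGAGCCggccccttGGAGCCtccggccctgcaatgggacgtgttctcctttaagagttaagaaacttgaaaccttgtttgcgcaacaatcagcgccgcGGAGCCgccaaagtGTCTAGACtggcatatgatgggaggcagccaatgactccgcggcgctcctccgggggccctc
ID1: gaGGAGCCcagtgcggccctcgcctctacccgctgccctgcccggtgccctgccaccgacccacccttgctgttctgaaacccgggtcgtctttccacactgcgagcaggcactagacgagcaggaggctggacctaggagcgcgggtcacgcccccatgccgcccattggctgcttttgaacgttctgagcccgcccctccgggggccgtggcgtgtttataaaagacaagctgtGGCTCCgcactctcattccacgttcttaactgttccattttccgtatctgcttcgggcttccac
ID3: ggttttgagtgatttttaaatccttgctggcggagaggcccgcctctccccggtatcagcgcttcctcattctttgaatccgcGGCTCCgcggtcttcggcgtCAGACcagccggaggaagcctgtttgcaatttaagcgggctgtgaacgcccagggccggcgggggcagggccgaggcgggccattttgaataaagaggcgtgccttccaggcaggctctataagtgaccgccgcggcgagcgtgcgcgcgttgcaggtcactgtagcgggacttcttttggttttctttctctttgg
The palindrome occurred 12 bases before the start in SMAD6, and in 0.202% of 35116 promoters of this length. SMAD6 also held 3 copies of GGAGCC or its complement, ID1 had 2 and ID3 had 1, and promoters of BMP4 and SMAD7 held the motif too, as did 36.0% of all promoters. The box CAGAC was in ID3 and in promoters of BMP4 and SMAD7, and in 45.3% of all promoters, and GGCGCC was in promoters of BMP4 and SMAD4 and in 19.2% of all. Promoters were matched for 8 of the 10 genes, and BMP7 and BMP2 are named only. These matches describe letters and not binding.

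**Figure D4:**
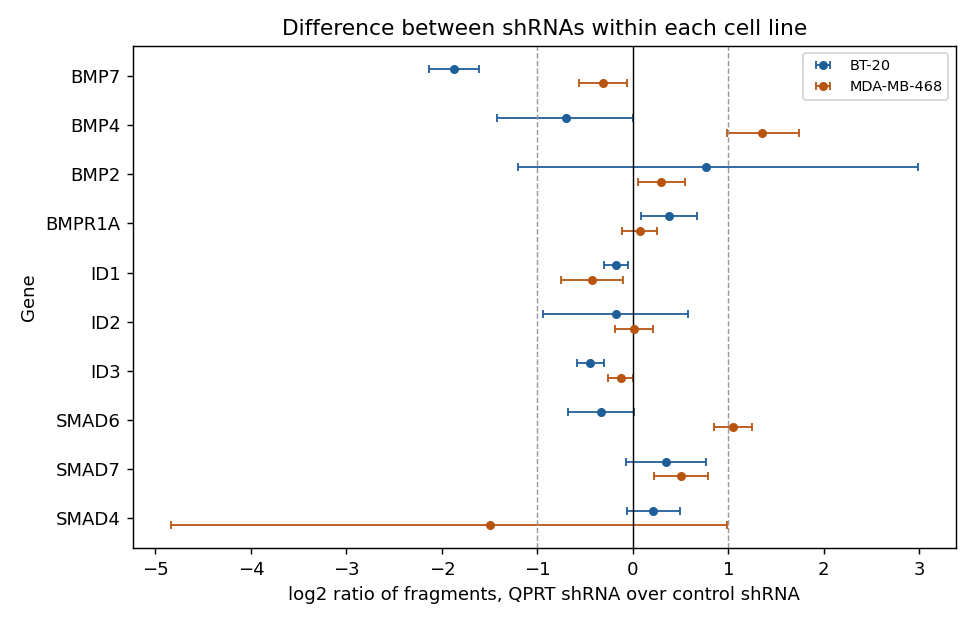
log2 ratio of fragments relative to library size, QPRT shRNA over control shRNA (horizontal axis), for the 10 genes (vertical axis) in BT-20 (blue) and MDA-MB-468 (orange); points are single comparisons of 2 libraries, bars are exact Clopper-Pearson 95% intervals of counting error, and dashed lines mark 2-fold. BMP7 in BT-20 lies beyond 2-fold below 0, as does the point of SMAD4 in MDA-MB-468, on 6 and 2 fragments with an interval from -4.84 to 0.98, the points of BMP4 and SMAD6 in MDA-MB-468 lie beyond 2-fold above 0, and the ID genes lie within 2-fold in both lines.

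On the log2(FPKM + 1) scale, 1 of the 10 genes, BMP7, was 2-fold or more lower in BT-20, and 0.649% of all genes tested were. None of the 10 was 2-fold or more higher there, against 1.05% of all genes. In MDA-MB-468, 1 gene, BMP4, was 2-fold or more higher, against 1.03% of all genes, and none was 2-fold or more lower, against 0.866%. The signs of the 2 lines were opposite for BMP4, ID2, SMAD6 and SMAD4, or 4 of 10 against 54.6% of all genes. BMP7, ID1 and ID3 were lower in both lines, 3 of 10 against 17.7% of all genes. BMP2, BMPR1A and SMAD7 were higher in both, 3 of 10 against 26.2%.

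Treating BT-20 and MDA-MB-468 as replicates of the knockdown, limma called 1 of the 10 genes, against 0.628% of all genes tested, and 0.363% in the lower direction. BMP7 fell with a mean log2 difference of -1.04 (standard error 0.230, limma, Benjamini-Hochberg adjusted p = 0.00264 over all genes). It was lower in both lines, by unlike amounts of -1.78 (BT-20) and -0.29 (MDA-MB-468). The standard error is a spread that limma shared between genes of a level, so this disagreement of the replicates did not widen it. The p-value therefore does not weigh how far the lines differed for BMP7. The adjusted p of BMP7 was 0.855 once the GC content and length trend was taken out, 0.988 without a filter on low values and 1.00 without the cell line block. The other 9 genes had an adjusted p of 1.00 from limma, with mean differences from -0.29 for ID1 to 0.39 for SMAD7. The intestinal, gastric and plasma cell markers summed to 2.59-fold less with QPRT shRNA in BT-20 and 5.58-fold less in MDA-MB-468, and BMP7 was 3.65-fold and 1.24-fold lower. Whether the fall of these markers has a part in that of BMP7 was not tested.

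Between the cell lines, limma called 8 of the 10 genes, against 55.1% of all genes tested. BMP4, BMP2, BMPR1A, ID2, SMAD6 and SMAD7 were higher in MDA-MB-468 (6 of 10, against 30.7% of all genes), and ID1 and SMAD4 were lower (2 of 10, against 24.4%). The mean log2 difference, MDA-MB-468 minus BT-20, was 3.31 for ID2 (standard error 0.252, adjusted p = 8.50e-38 from limma), 2.83 for BMP2 (standard error 0.296, adjusted p = 2.63e-20 from limma), -2.55 for ID1 (standard error 0.218, adjusted p = 6.43e-30 from limma) and -3.27 for SMAD4 (standard error 0.290, adjusted p = 5.41e-28 from limma). BMP7 and ID3 were not called, with mean differences of -0.15 and 0.095. BMP7 was lower in MDA-MB-468 with control shRNA (-0.90) and higher with QPRT shRNA (0.59). BMP2, BMPR1A, ID1, ID2 and SMAD4, 5 of the 10, were 2-fold or more apart under both shRNAs, against 23.3% of all genes. Each line had 1 library per shRNA, so that these p-values rest on 2 libraries of each line that differ in treatment. Their size also rests on a spread that limma shared between genes of a level. Without a filter on low values, the adjusted p from limma was 0.0042 for ID2, 0.0087 for BMP2, 0.0046 for ID1 and 0.0076 for SMAD4.

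The rest of the pathway was described from 8 lists with 101 genes, of which 70 had a mean of at least 1 FPKM. Of these 70 genes, 2 were 2-fold or more higher and 1 lower in BT-20, and 3 were higher and none lower in MDA-MB-468, with no gene past 2-fold in both lines. That is 4.29% of the list genes in each line, beside 1.05% of all genes tested higher and 0.649% lower in BT-20, and 1.03% higher and 0.866% lower in MDA-MB-468. Of the other ligands, 7 of 19 were expressed at this level. INHBA, the activin A subunit, had 7.13 FPKM (control shRNA) and 18.9 FPKM (QPRT shRNA) in BT-20 cells and 2.01 and 1.24 in MDA-MB-468. TGFB1 had 89.1 and 69.7 FPKM in BT-20 cells against 20.3 and 46.7 in MDA-MB-468, so that these ligands, like BMP4, differed in opposite directions in the lines. TGFB2 and TGFB3 were at least 4-fold lower in BT-20 than in MDA-MB-468 under both shRNAs, at 0.0631 and 0.553 FPKM against 32.3 and 31.5 for TGFB2 and at 0.153 and 0.597 against 3.65 and 6.31 for TGFB3.

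Among the 70 genes, the largest differences between shRNAs in MDA-MB-468 were those of the antagonists SOSTDC1 and FST. SOSTDC1, a secreted BMP antagonist, had 0.0880 and 0.0428 FPKM in BT-20 cells against 2.56 and 17.2 in MDA-MB-468 (60 and 381 fragments). It was the only gene of the 70 that limma called for the shRNA, against 0.628% of all genes tested. Its mean log2 difference was 1.15 (standard error 0.297, adjusted p = 0.0241 from limma). That mean comes from MDA-MB-468, where the difference was 2.36, against -0.061 in BT-20, where the gene was near 0. Here too the standard error is the shared spread, which the unlike lines did not widen. The adjusted p from limma ran from 1.31e-06 to 1.00 over the alternative settings. FST, follistatin, which binds activins and some BMPs, had no fragment in BT-20 and 6 and 55 fragments in MDA-MB-468, or 0.385 and 3.74 FPKM. FSTL1 had 37.1 and 17.6 FPKM in BT-20 cells against 2.58 and 1.90 in MDA-MB-468. The median log2 difference of the 8 antagonists tested was 0.048 in BT-20 cells against 0.11 in MDA-MB-468, beside 0.048 and 0.011 over all genes.

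For the 12 receptors and co-receptors tested the median log2 difference was 0.23 in BT-20 cells against 0.055 in MDA-MB-468, with no gene past 2-fold, and for the 4 receptor-activated SMADs tested 0.26 and -0.17. The co-receptor RGMA had 0.0740 and 0.216 FPKM in BT-20 against 4.56 and 8.80 in MDA-MB-468. For the 7 other ligands the medians were 0.14 and 0.20. The 9 BMP targets tested had medians of 0.17 and 0.092, with none past 2-fold. Of these, BAMBI, a decoy receptor, had 77.9 and 60.4 FPKM in BT-20 cells against 38.4 and 63.1 in MDA-MB-468, and MSX2, a homeobox factor, had 79.4 and 49.7 FPKM in BT-20 and was listed at 0 in MDA-MB-468. The 12 TGF-beta targets had medians of -0.0014 and 0.16. TGFBI, a secreted matrix protein, had 3.35 and 9.61 FPKM in BT-20 cells against 18.3 and 21.1 in MDA-MB-468, and was the gene of this list past 2-fold in BT-20. CCN2, at 0.0403 and 0.0392 against 43.5 and 67.7 FPKM, and CDKN2B, at 0.194 and 0.330 against 29.1 and 35.6 FPKM, were near 0 in BT-20, and SNAI2, at 4.90 and 5.37 FPKM in BT-20, was listed at 0 in MDA-MB-468. The 16 SMAD regulators had medians of 0.36 and 0.027, with none past 2-fold.

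**Figure D5:**
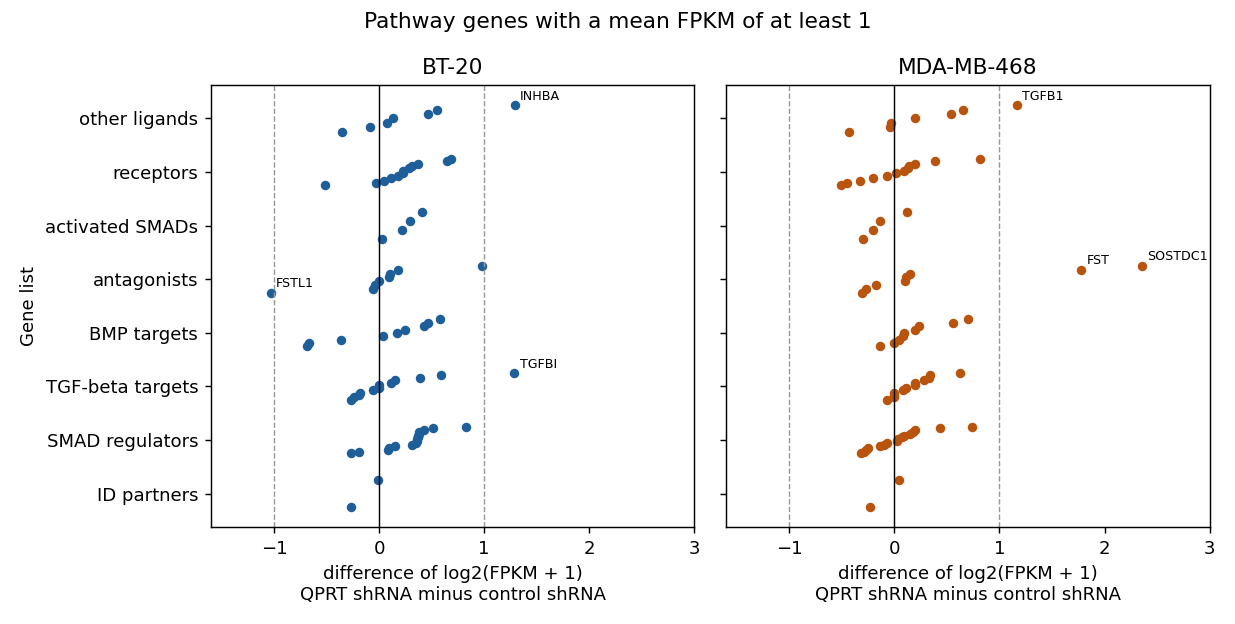
Difference of log2(FPKM + 1), QPRT shRNA minus control shRNA (horizontal axis), for the 70 tested genes of the 8 pathway lists (vertical axis), in BT-20 (left) and MDA-MB-468 (right); each point is 1 gene, dashed lines mark 2-fold and genes past them are named. INHBA, TGFBI and FSTL1 pass it in BT-20 and TGFB1, FST and SOSTDC1 in MDA-MB-468.

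The 2 partners of the ID proteins tested, TCF3 and TCF12, had median log2 differences between shRNAs of -0.14 (BT-20) and -0.093 (MDA-MB-468). Of the pair, TCF12 differed between the lines. TCF12 had 25.6 and 25.4 FPKM in BT-20 cells (435 and 443 fragments) against 0.172 and 0 FPKM in MDA-MB-468 (3 and 0 fragments), a ratio of 289 with an exact 95% interval from 98.6 to 1404 for the joined fragments. TCF3 was at similar levels, with 102 and 84.7 FPKM in BT-20 cells against 102 and 105 in MDA-MB-468. TCF4 had 1.45 and 2.05 FPKM in BT-20 cells against 0.117 and 0.124 in MDA-MB-468. MDA-MB-468 thus had a higher summed ID level, 1 abundant E protein gene and nearly no TCF12 or TCF4 RNA, whereas BT-20 had both TCF3 and TCF12.

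Genes most like BMP7, ID1 and SMAD4 over the 4 libraries were sought among 10422 genes with a mean of at least 5 FPKM, by the largest gap between profiles of log2(FPKM + 1) centred on their mean. Nearest to BMP7 was MUCL1, a small mucin-like protein of breast epithelium, at a gap of 0.34, with 33.1 and 13.2 FPKM in BT-20 cells against 16.4 and 21.7 in MDA-MB-468, followed by TSC22D3 (0.43) and C12orf57 (0.47). For ID1 they were HSD3B7 (0.13), UQCC1 (0.15) and IL1R1 (0.17). For SMAD4 they were COX7B2 (0.060), H2BC18 (0.096) and TMEM200B (0.10). The gaps of all 3 genes named for BMP7 exceeded those of the 6 others.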

How the data were processed

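RNA-seq libraries of BT-20 and MDA-MB-468 cells with control or QPRT shRNA, 1 each, were used. The authors trimmed reads and deposited FPKM values per Ensembl gene; the submitters' processing notes name TopHat2 2.0.12 and HTSeq 0.6.1, and the genome build and annotation are not given in the sources used here. Symbols came from a table of gene names (49414 of 50653 rows matched), and positions, lengths and GC content from GENCODE 29 (GRCh38). FPKM times transcript length, divided by the worth of 1 fragment, was whole within 0.02 for 87.2% to 87.6% of the values above 0; for genes where it was not, such as BMPR1A (5838 bases) and SMAD7 (1227 bases), the nearest length that gave whole fragments in all libraries was used, if no more than 2 did. No molecular identifiers are described, so fragments need not be independent molecules and intervals cover counting error only.

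Differences were of log2(FPKM + 1) where the mean FPKM reached 1, and 2-fold was called changed. limma 3.58.1 (R 4.3.3; cell line + shRNA, eBayes with a trend, 1 residual degree of freedom) gave adjusted p-values called under 0.05. It set an infinite prior, so that genes of one level shared one spread. The test that the paper names, DESeq2, was not used, since it needs counts. On simulated data, limma recovered 100% of 200 genes changed 4-fold among 14232 for the shRNA, with 6.10% false calls. For the cell line it recovered 100%, with 5.21%. The simulated shRNA changes were equal in both lines, and only well-covered genes were changed. These shares therefore do not measure the error of the calls made here, where differences were unlike in the lines. Named were the 10 genes, QPRT, listed genes over that minimum that differed 2-fold between shRNAs or 4-fold between lines under both, a few receptors, SMADs, ID4, BAMBI and E proteins whatever their values, and the 3 genes nearest in profile to BMP7, ID1 and SMAD4. Members, lists and tests were chosen with earlier results of these data known. Alternatives were a pseudocount of 0.1, upper quartile and TPM scaling, removal of the lowess trend on GC content and length (fraction 0.3), no filter or a mean FPKM of at least 5, 1.5-fold, eBayes without a trend, limma-voom on recovered fragments, models without the cell line or the shRNA, and summed rows of a symbol. Other steps used scipy 1.17.1 and matplotlib 3.10.9 under Python 3.11.15.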

Additional observations from a re-analysis of the deposited data

Results flagged for a closer look

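The difference between shRNAs had opposite signs in the 2 cell lines for BMP4, SMAD6, SMAD4 and ID2. The difference in MDA-MB-468 minus that in BT-20, in log2, was 1.76 for BMP4 (1.24 against -0.53), 1.27 for SMAD6 (0.99 against -0.28), -0.42 for SMAD4 (-0.22 against 0.20) and 0.14 for ID2 (0.012 against -0.13). With 1 library per cell line and shRNA, none of these contrasts was tested. Of the 8 intervals of counting error, those of BMP4 in both lines and of SMAD6 in MDA-MB-468 excluded 0.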

How the results depend on the processing

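The count of the 10 genes past 2-fold in BT-20 was 1 in every alternative. In MDA-MB-468 it was 2 with a pseudocount of 0.1 and 2 at 1.5-fold, SMAD6 joining BMP4. The count 2-fold apart between the lines under both shRNAs, 5, ranged from 5 to 7 over the other settings and was 8 at 1.5-fold. The call of BMP7 for the shRNA was kept in 7 of 10 alternatives, and the count was 0 with the GC content and length trend removed, 0 without a filter on low values and 0 without the replicate block of cell lines, with a mean difference of -1.03, -1.04 and -1.04. With the trend removed, the degrees of freedom of the limma prior were 6.82. Between the lines, the 8 calls stood except that without a filter BMP4 (adjusted p = 0.0853 from limma) and SMAD6 (adjusted p = 0.0528 from limma) were not called, and that a mean FPKM of at least 5 leaves out BMP2. The sign turned for BMP7 between the lines with the trend removed (0.0066) and for SMAD4 with the shRNA under limma-voom (0.079), neither of them called. No library could be left out, since each group holds 1. Depth limits BMP2 in BT-20 and SMAD4 in MDA-MB-468, with at most 7 fragments a library.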

Other observations

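The following genes were named after their values were seen. ATOH8, a helix-loop-helix factor and BMP target with a mean under 1 FPKM, had 2.59 FPKM (control shRNA) and 0.486 FPKM (QPRT shRNA) in BT-20 cells (52 and 10 fragments), and 0.242 and 0.0513 in MDA-MB-468 (5 and 1 fragments). NOG, the secreted antagonist noggin, which binds BMP7, had 2.74 and 6.35 FPKM in BT-20 cells (55 and 131 fragments) against 1.06 and 0.717 in MDA-MB-468 (22 and 14 fragments). In BT-20, NOG was thus higher with QPRT shRNA where BMP7 and ATOH8 were lower. Of the 9 BMP targets tested, which leave out ATOH8, 6 were higher and 3 lower with QPRT shRNA in BT-20. Of all 14321 genes tested, 8072 were higher and 6155 lower there, so this count does not set the BMP targets apart.

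No neighbour of TCF12 was as low as ELAC1 in point value by the same measure. Of the 11 other protein-coding genes within 1 Mb of TCF12, 8 had a mean of at least 1 FPKM in BT-20, and their MDA-MB-468 levels were 23.2% to 249% of those in BT-20, against 0.336% for TCF12. The lowest, MYZAP, had 37 and 38 fragments in BT-20 against 6 and 11 in MDA-MB-468. ELAC1 rests on 7 fragments in MDA-MB-468, and the contrast of the 2 genes was not tested.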
